A study of Mus musculus with 16 samples.

Results

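Cps1 encodes carbamoyl phosphate synthetase 1, the mitochondrial enzyme that joins ammonia and bicarbonate into carbamoyl phosphate, the first committed step of the urea cycle. The enzyme needs N-acetylglutamate as an activator. It is abundant in hepatocytes and is also made by the epithelium of the small intestine, where ornithine transcarbamylase uses its product to form citrulline, which the kidney turns into arginine. H3K27ac is the acetylation of lysine 27 on histone H3, found at active promoters and enhancers, and it was followed here over the Cps1 locus by chromatin immunoprecipitation and sequencing (ChIP-seq).

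The locus was taken as the 150 kb of chromosome 1 from 67140000 to 67290000 on the mouse build mm9, with Cps1 (gene ID 227231) placed to the nearest kb from 67169000 to 67277000 on the plus strand. Every deposited peak that overlapped this window was a member, which gave 89 of the 369142 peaks of the series. The window had been picked because peaks near it were present at E14.5 and missing at E12.5, so that contrast is described below without a test. Comparisons of ISC with E14.5 reuse the E14.5 values of that choice and are not independent of it. Distances are given from the start of the gene as placed.

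Libraries came from sorted epithelium of the mouse small intestine, with 2 libraries in each of 4 groups, all of mixed C57BL/6 and CD1 background. The groups were gut epithelium of E12.5 embryos, the same tissue from E14.5 embryos (E gives the embryonic day), adult stem cells sorted for high EGFP from Lgr5 (ISC), and adult enterocytes, which line the villus and absorb nutrients. The sort for embryonic cells and for enterocytes took cells with the epithelial protein EpCAM and without CD31 (endothelium) and CD45 (leukocytes), a gate that does not itself part enterocytes from other epithelial cells. Both adult populations came from Lgr5EGFP-Cre-ERT males of 2 months (postnatal day 60). The embryos were not described by sex in the labels. The libraries of a group are biological duplicates according to the series. The cell labels were not checked against marker genes, since an annotation of mm9 was not used here.

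Depth was 34.6 to 54.6 M tags per ChIP library, and each peak list, called against its own input, had 35614 to 52510 peaks covering 38.8 to 76.1 Mb. ISC replicate 2 covered the most (76.1 Mb, against 51.2 Mb in ISC replicate 1), and the enterocyte libraries the least (both 38.8 Mb). A peak is a stretch that passed the caller's threshold, so a region without a peak had H3K27ac below that threshold, not necessarily none. In these bulk samples, fewer cells carrying the mark and less of the mark per cell cannot be told apart.

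Marked chromatin at Cps1 was widest in the stem cells and narrowest in the enterocytes. Peaks covered 5.83 and 8.06 kb of the window in E12.5 libraries, 18.0 and 15.3 kb in E14.5 libraries, 23.7 and 31.1 kb in ISC, and 2.00 and 4.73 kb in enterocytes. No library of one group overlapped the range of another group. The libraries had 6 and 7 peaks at E12.5, 16 and 14 at E14.5, 17 and 17 in ISC, and 4 and 8 in enterocytes. In every group nearly all peaks lay upstream of the gene or in its first 20 kb. The body of the gene beyond its first 20 kb held no peak in 7 libraries and 1 peak of 0.550 kb in ISC replicate 2. The stretch from the gene's end to the window's end held none in any.

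**Figure D1:**
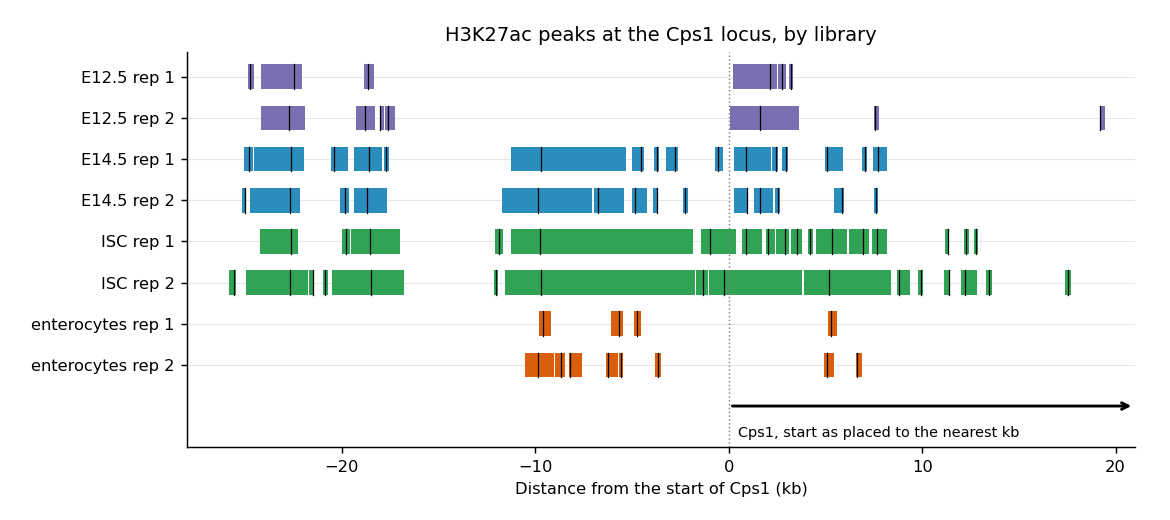
Peaks of the 8 libraries (boxes, with a black line at each summit) against the distance from the start of Cps1 in kb; the arrow gives the direction of the gene. Peaks lie in a far cluster, a near upstream block that is empty at E12.5, and the first kilobases of the gene; the single peak of ISC replicate 2 at 75.0 kb lies beyond the right edge.

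The libraries differ in how much they cover in all, so the lengths were also scaled to the mean total of the 8 libraries. The scaled lengths were 7.20 and 7.23 kb in E12.5 libraries, 14.9 and 14.4 kb in E14.5 libraries, 24.9 and 22.0 kb in ISC, and 2.78 and 6.56 kb in enterocytes. The order of the groups was the same and no ranges overlapped, but the ISC replicates changed places, since replicate 2 has the larger total. Among 9710 windows of this length over the genome with a peak in at least 2 libraries, the Cps1 window stood at percentiles 74.7 and 74.9 at E12.5, 90.6 and 90.2 at E14.5, 96.7 and 95.8 in ISC, and 57.6 and 73.2 in enterocytes.

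Merging the peaks over the 8 libraries gave 16 regions in the window. Of these, 7 were present in both libraries of at least 1 group, and the other 9 were each in a single library. No region was in all 8 libraries. The 5 longest of the 7 are named here by their place: a far upstream region (67143843 to 67147249), a middle upstream region (67148444 to 67152228), a near upstream region (67156848 to 67167262), a region over the gene start (67167323 to 67172798) and an intragenic region (67172868 to 67177408). The other 2, at 67180122 to 67180433 and 67180988 to 67181901 inside the gene, were short and found in ISC. Lengths per region are given as deposited and were not scaled to the library totals.

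The near upstream region, at −12.2 to −1.74 kb from the gene start, was free of peaks at E12.5 and marked in the other 3 groups. Its peaks covered 7.42 and 7.48 kb in E14.5 libraries, against 0 kb in both E12.5 libraries. As deposited, it was longer still in ISC, at 9.81 and 10.1 kb, and shorter in enterocytes, at 1.53 and 3.90 kb. ISC replicate 2 also had the largest covered total, 76.1 Mb, against 65.1 and 56.9 Mb in the E14.5 libraries. The gap between ISC and E14.5 therefore depends on scaling, and it was not tested for this region. Of the 16 regions this was the single one in both E14.5 and neither E12.5 library, beside 7.81% of all 79482 merged regions of the genome; the window was chosen on this contrast and nothing is read from that share.

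The summit of this near upstream region moved little among the 6 libraries that had it. Its strongest peak had its summit at 67159274 and 67159162 at E14.5, at 67159217 and 67159296 in ISC, and at 67159392 and 67159121 in enterocytes, a spread of 271 bp over the 6 libraries. This was also the strongest peak of the whole window in each of the 6 libraries. The score of each peak is the authors' own and is given here by its rank within its list. This peak stood at percentiles 81.7 and 81.6 of −log10 q in the E14.5 lists. It stood at 87.6 and 86.2 in the ISC lists, and at 26.1 and 49.8 in the enterocyte lists. Its deposited fold enrichment over the local background was 15.6 and 13.3 at E14.5, 17.7 and 20.8 in ISC, and 4.06 and 5.56 in enterocytes. These ratios come from separate lists and their differences were not tested.

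Other parts of the locus had peaks at E12.5. Of the 16 regions, 3 were in both E12.5 libraries, against 35.7% of all merged regions: the far upstream region, the middle upstream region and the region over the gene start. With a peak over at least 50% of the region, or with −log10 q of at least 10, the middle upstream region was in neither and 2 were left. The shares of all merged regions were then 24.6% and 41.8%, and the second setting left 7 regions in the window. The locus thus held H3K27ac peaks before E14.5, and calling it switched on at that stage would describe the near upstream region but not the gene start. At E12.5 the strongest peak of the window lay in the far upstream region, with summits at 67146504 and 67146251; in replicate 1 its −log10 q of 19.1 was close to the 18.9 of the gene start.

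The far upstream region was marked in both libraries of 3 groups, over 2.00 to 3.19 kb. Its covered lengths were 2.39 and 2.28 kb in E12.5 libraries and 3.04 and 2.84 kb in E14.5 libraries, ranges that did not overlap as deposited. In ISC they were 2.00 and 3.19 kb, where the replicates spanned the values of both embryonic stages. Enterocytes had no peak there. Its summits lay within 253 bp of each other in the 6 libraries, and its strongest peak was between percentiles 65.0 and 77.2 of its own list in each of them.

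The middle upstream region was weak at E12.5, with 0.521 and 1.70 kb, and held 2.61 and 2.19 kb in E14.5 libraries and 2.94 and 3.76 kb in ISC libraries. As deposited, the ranges of these 3 groups did not overlap, and enterocytes had no peak. Its strongest peak stood at percentiles 37.5 and 40.8 of the E12.5 lists and between 67.6 and 75.3 in the E14.5 and ISC lists, with summits within 316 bp in the 6 libraries.

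The region over the gene start did not follow the near upstream region. It held 2.92 and 3.56 kb of peak in E12.5 libraries and 3.00 and 1.98 kb in E14.5 libraries. These ranges overlapped as deposited. E12.5 replicate 1 covered 43.6 Mb in all and E14.5 replicate 1 covered 65.1 Mb. The overlap thus rests on unscaled lengths, and no likeness of the stages is read from it. In ISC the region held 4.60 and 5.42 kb. Enterocytes had no peak over the gene start. Its strongest peak was only mid-list: at percentiles 64.7 and 69.4 at E12.5, 62.5 and 42.4 at E14.5, and 43.0 and 56.0 in ISC. Unlike those of the upstream regions, its summits were spread over 2330 bp. They lay 2.11 and 1.59 kb from the placed start in the E12.5 lists, 0.910 and 1.64 kb from it in the E14.5 lists, and at 0.885 and −0.221 kb in ISC.

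**Figure D2:**
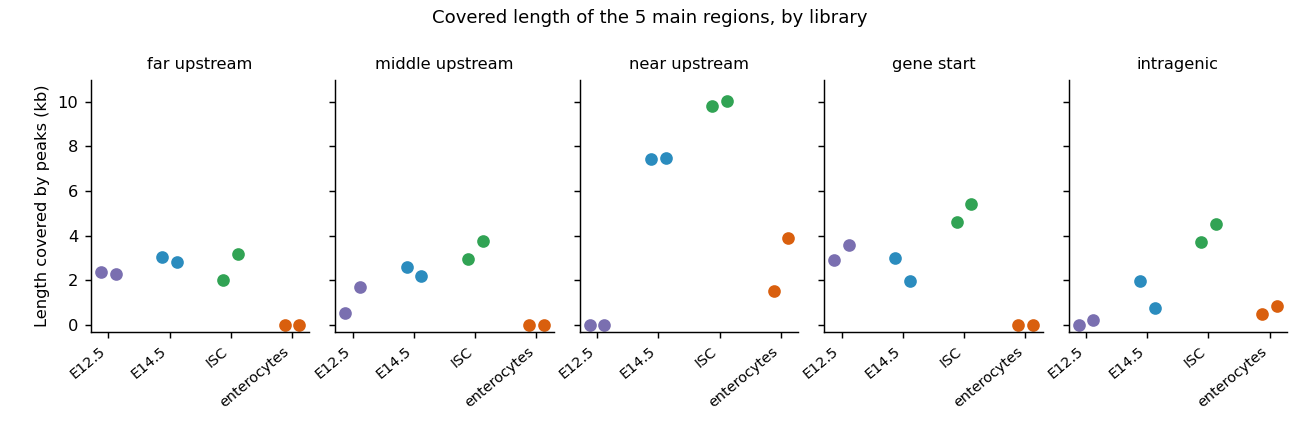
Length covered by peaks in kb for each of the 5 main regions, one point per library, with the groups from E12.5 to enterocytes along each axis. The near upstream region is at 0 in both E12.5 libraries and at 9.81 and 10.1 kb in ISC, while the far upstream region and the gene start have peaks in every library but those of enterocytes.

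The intragenic region, 3.87 to 8.41 kb into the gene, was covered longest in the stem cells. Its length was 3.69 and 4.54 kb in ISC, against 1.96 and 0.765 kb in E14.5 libraries; a single peak of 0.227 kb was present in E12.5 replicate 2, and enterocytes had 0.470 and 0.832 kb. Within the ISC lists its strongest peak stood at percentiles 61.2 and 78.4. Its summit lay between 67174064 and 67174361 in the ISC and enterocyte libraries and in E14.5 replicate 1, and at 67176583 in E12.5 replicate 2. E14.5 replicate 2 had 2 peaks tied on −log10 q there, with summits at 67174860 and 67176639, so no single summit is given for it.

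**Figure D3:**
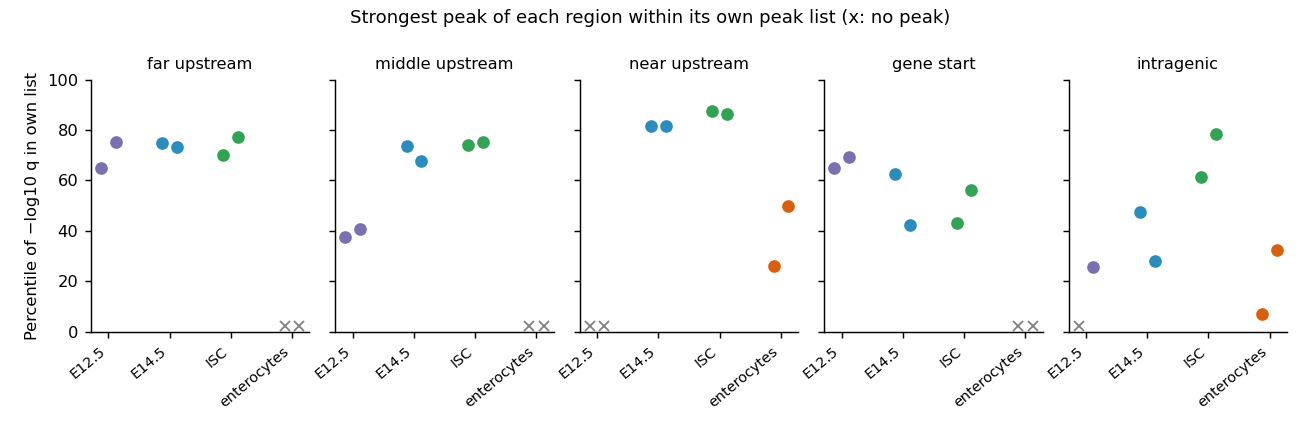
Percentile of −log10 q of the strongest peak of each main region within its own library's peak list, one point per library; a cross marks a library with no peak in the region. In ISC and at E14.5 the near upstream region ranks above the other 4 regions of the same library.

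Between E14.5 epithelium and adult stem cells the marked length was greater in both ISC libraries. The choice of the window used its E14.5 peaks, so the test below is not independent of that choice. Its outcome is given as a description. The first 20 kb of the gene held 7.55 and 11.1 kb of peak in ISC, against 4.52 and 2.75 kb in E14.5 libraries. Over the window as a whole the scaled length was higher in ISC by 0.66 on the log2(covered bp + 500) scale (SE 0.33), beside a median of −0.10 over all such windows, and did not pass the test (limma, Benjamini-Hochberg adjusted p = 0.154 over 9710 windows, of which 45.6% were called in either direction). The outcome of the test depended on the enterocyte libraries, whose spread enters the shared error. The change was also 0.66 without enterocytes replicate 1 and without enterocytes replicate 2. Why the outcome moved was not tested. In windows of 20 kb, 1 of the 3 tested in the locus was called higher, beside 16.6% of all 30733 windows. That window, from 67180001 to 67200000 inside the gene, held 0.685 and 1.77 kb in ISC and none at E14.5. Its change was 1.55 (SE 0.26, adjusted p = 0.00534), and its size depends on the added 500 bp. Outside ISC only E12.5 replicate 2 had a peak in it (0.298 kb), so it entered the test through ISC. No rise of the locus is read from it. The window from 67160001 to 67180000, with 15.5 and 18.2 kb in ISC and 10.1 and 7.51 kb in E14.5 libraries, had a change of 0.87 (SE 0.33) with adjusted p = 0.0941. That from 67140001 to 67160000, upstream, had 7.58 and 10.6 kb in ISC and 7.91 and 7.74 kb in E14.5 libraries, a change of 0.15 (SE 0.30, adjusted p = 0.792).

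By presence, 2 of the 16 regions were in both ISC and neither E14.5 library, against 7.58% of all merged regions, and none showed the reverse, against 10.1%. They were the short intragenic ones, covered over 0.207 and 0.312 kb and over 0.478 and 0.861 kb in ISC. They ranked low in their lists, at percentiles 1.33 and 3.01 for the first and 13.6 and 42.5 for the second. With equal numbers of peaks per library, neither was present in both ISC libraries.

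Marked chromatin at Cps1 fell in enterocytes relative to the stem cells from which they descend. Scaled covered length fell by 2.31 on the log2 scale (SE 0.33, limma adjusted p = 0.00179); of all windows of this length, 29% were called lower in this comparison. In all 4 pairings of an enterocyte with an ISC library the enterocyte value was lower. All 3 tested 20 kb windows fell, beside 24.6% of all such windows. The changes along the locus were −2.16 (SE 0.30, adjusted p = 0.0028), −2.10 (SE 0.33, adjusted p = 0.00444) and −1.55 (SE 0.26, adjusted p = 0.00546). The last window entered the test through ISC and held 0 kb in enterocytes, so nothing is read from its fall. Its change was −3.39 with 100 bp and −0.57 with 2000 bp added. With −log10 q of at least 10 or equal peak numbers, that window was not tested and the other 2 fell. With peaks of −log10 q of at least 10 alone, which leaves 0 and 1 peak in the enterocyte libraries, the locus fell by 4.07. Without scaling it fell by 2.93, and the median over all windows was −0.57 in place of −0.06.

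By presence, 5 of the 16 regions were in both ISC and no enterocyte library, against 12.4% of all merged regions. They were the far and middle upstream regions, the gene start and the 2 short intragenic regions. None was in both enterocyte libraries and absent from ISC, against 3.97%. The 2 regions in both enterocyte libraries, against 26.9% of all merged regions, were the near upstream and the intragenic one. Their peaks there were short: with a peak over at least 50% of the region required, neither was in an enterocyte library. In both ISC and no enterocyte library were then 7 regions in place of 5, against 13.5% of all merged regions. Enterocytes replicate 1, which covered 2.00 kb, had 42.2 M tags and replicate 2, which covered 4.73 kb, had 34.6 M, against 40.4 and 42.1 M in the ISC libraries.

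**Figure D4:**
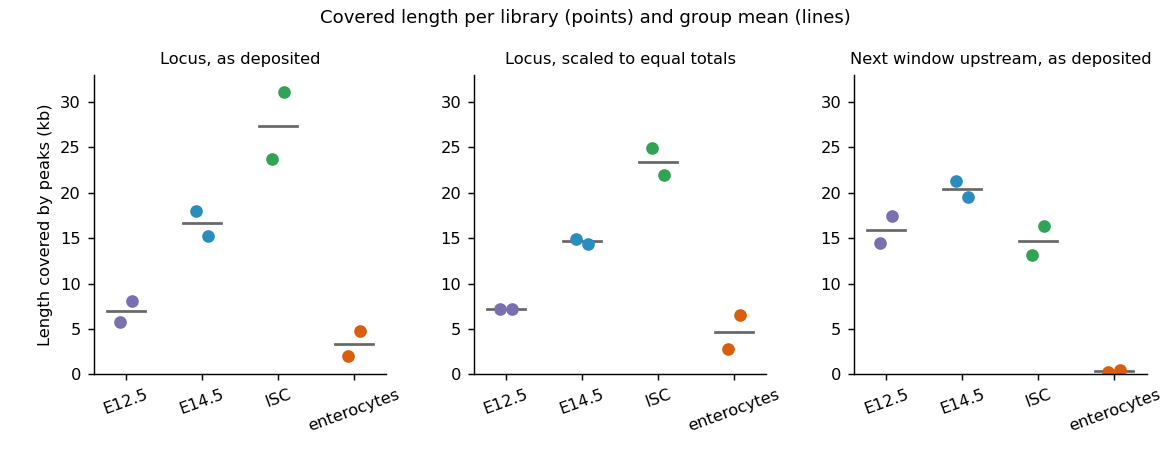
Length covered by peaks in kb per library (points) with the group mean (lines), for the Cps1 window as deposited, for the same window scaled to equal library totals, and for the window of equal length next upstream. ISC are highest in the Cps1 window, while in the window upstream the E12.5, E14.5 and ISC libraries lie between 13.2 and 21.3 kb and enterocytes at 0.213 and 0.455 kb.

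Shares of marked length are given beside the same over the genome; ISC had the widest marking in this window, and the difference from the genome was not tested. Of the length marked in each enterocyte library, 100% lay within the peaks of either ISC library, against 69.6 to 85.1% over the genome; it made up 6.45 to 19.9% of the length marked in ISC, against 41.4 to 56.3%. Of the E14.5 length, 87.4 to 99.2% lay within ISC peaks, against 58.6 to 76.6% over the genome, and of the E12.5 length 81.5 to 100%, against 52.2 to 70.9%. Enterocytes and E12.5 shared 0 kb in all 4 pairs of libraries. Over the genome 44.9 to 56.1% of the enterocyte length lay within E12.5 peaks and 33.8 to 43.0% of the E12.5 length within enterocyte peaks. The window was picked for peaks missing at E12.5. The near upstream region, empty at E12.5, held 1.53 of 2.00 kb and 3.90 of 4.73 kb of the enterocyte length. Nothing is therefore read from the 0 kb. The Jaccard index (shared length divided by the length marked in at least 1 of the pair) was 0.665 for the replicates at E12.5, 0.712 at E14.5, 0.744 in ISC and 0.280 in enterocytes, and 0.473 to 0.611 between ISC and E14.5 libraries. Over the genome the same indices were 0.666, 0.771, 0.659 and 0.712, and 0.488 to 0.505, so the enterocyte replicates shared less of their marking here than over the genome.

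The marking around the window was uneven. In the same length of chromosome just upstream, from 66990001 to 67140000, peaks covered 14.46 and 17.41 kb in E12.5 libraries, 21.3 and 19.5 kb in E14.5 libraries, 13.2 and 16.3 kb in ISC, and 0.213 and 0.455 kb in enterocytes. That stretch was thus wide already at E12.5, unlike the Cps1 window, and fell in enterocytes relative to ISC by 3.79 on the log2 scale (SE 0.19, adjusted p = 4.37e-05); the difference between the stretches was not tested. Its last peak ended at −41.6 kb from the gene start, outside the chosen window, and the first peak inside began at −25.8 kb. The same length downstream of the window held no peak in any library. The protein-coding neighbours in the RefSeq gene table (GRCm38.p6) are Lancl1 before Cps1 and Erbb4 after it.

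The 3 other windows whose 8 scaled values were most like those of Cps1 were neighbours on chromosome 13 (37440001 to 37590000 and 37590001 to 37740000) and a window on chromosome 19 (41040001 to 41190000). Their Euclidean distances on the log2 scale were 0.88, 0.94 and 0.97, against a median of 6.25 over all other windows. The first of them had peaks over 8.06 and 10.6 kb in E12.5 libraries, 17.8 and 15.3 kb in E14.5 libraries, 29.6 and 35.5 kb in ISC, and 2.48 and 6.77 kb in enterocytes. They were found by this likeness, so it is a description.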

How the data were processed

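H3K27ac ChIP-seq peak lists of 8 libraries were analysed; their 8 inputs enter through the calling alone. The build was mm9 and the tools listed were Bowtie 1.1.2, SAMtools 1.2, MACS2 and bcl2fastq 1.8.4, per the submitters' processing notes. Per the file headers, each library was called against its own input with MACS 2.1.0.20140616 in narrow mode at a q-value cutoff of 0.05, with 1 tag kept per position. The deposited pileup signal, −log10 q and fold enrichment ratio are outputs of the authors' MACS run. Peaks were ranked by −log10 q within a list, fold enrichment is listed per library, and no test compared these scores between lists. The alternative with −log10 q of at least 10 put the same cutoff on all lists, whose depths differ. The lists hold no counts per region, so counting intervals cannot be had, and 2 libraries a group set the precision.

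Covered length was summed in windows of 150 kb laid so that the Cps1 window was 1 of them, and in windows of 20 kb, and scaled by each library's total covered length. A window was tested where at least 2 libraries had a peak. log2(covered bp + 500) was fitted with limma 3.58.1 (R 4.3.3; eBayes with trend and robust) with a mean for each of the 4 groups (4 residual degrees of freedom), and adjusted p under 0.05 was called. An exact permutation test of 2 against 2 libraries cannot give p below 0.333. All p-values reflect how far these libraries spread, which may be technical. Regions are peaks merged where they overlap or touch, present at 1 bp or more. On 9710 simulated 150 kb windows for enterocytes against ISC, the fit recovered 69 of 100 changes of 1 and 91 of 100 changes of 2 on the log2 scale. There were 8 false calls among the unchanged windows. Only these few windows were changed, with normal noise, whereas 4381 of 9710 were called in the data. The error rate of the calls in the data was therefore not tested by it.

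The regions described are those in both libraries of at least 1 group; like windows are the 3 nearest. The members and lists were chosen with earlier results of these data known. The gene table is on GRCm38.p6, so no coordinates were converted and other urea cycle genes were not analysed here. Alternatives changed the scaling, constant, filter, threshold, peak number, replicate block and window, or left out a library.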

Additional observations from a re-analysis of the deposited data

How the results depend on the processing

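The fall in enterocytes relative to ISC kept its direction and passed the test in all 16 alternatives, with changes of −4.07 to −1.76 and adjusted p of at most 0.0151; with 1 library left out they ranged from −2.87 to −1.76. The change in ISC relative to E14.5 stayed positive in all 16 (0.35 to 0.80, adjusted p 0.00183 to 0.445; 0.57 to 0.75 with 1 library left out) and passed only without enterocytes replicate 1 or replicate 2. Adding 2000 bp gave 2 higher 20 kb windows in place of 1, as did leaving out either enterocyte library (1 to 2 windows with 1 library left out). The window from 67160001 to 67180000 then passed, and its own change also passed with −log10 q of at least 10 and with equal peak numbers, where the window from 67180001 to 67200000 had too few libraries with peaks to be tested.

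Of the 150 kb windows, 4430 were called for ISC against E14.5. This became 2765 without scaling, 2835 with −log10 q of at least 10, and 2873 to 4862 with 1 library left out, the lowest without E14.5 replicate 1 and 2934 without E14.5 replicate 2. For enterocytes against ISC, 4381 were called, of which 35.7% were higher and, without scaling, 7.44%. The difference between E14.5 and E12.5, 0.97 on the log2 scale, was 1.21 without scaling, 1.01 with 100 bp and 0.85 with 2000 bp added, 0.86 with −log10 q of at least 10, 0.45 with the window moved 75 kb upstream, and 0.95 to 1.00 with 1 library left out. Merging peaks within 1 kb left 3 regions in both libraries of a group in place of 7: the far and middle upstream regions joined, as did the 2 short intragenic ones, and the near upstream, gene start and intragenic regions became 1 block (67156848 to 67179039) present in both libraries of all 4 groups. None of the 6 regions was then in both E14.5 and no E12.5 library, beside 8.66% of all merged regions. Enterocytes lacked no separate gene start region. With a peak over at least 50% of the region, 2 of 16 regions in place of 1 were in both E14.5 and no E12.5 library. In both ISC and no E14.5 library were 3 in place of 2, and in both ISC and no enterocyte library 7 in place of 5. The shares of all merged regions were 8.38, 7.75 and 13.5%. With −log10 q of at least 10 these counts were 2, 0 and 4 of 7 regions, beside 8.61, 8.38 and 15.6% of all merged regions. With equal peak numbers they were 2, 0 and 3 of 8 regions, beside 7.63, 8.9 and 11.9%. Where not stated, the cause was not tested.

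The replicate numbers are shared between groups. Same-numbered deviations correlated over windows by −0.16 to 0.21 among the 6 pairs of groups. These values cannot tell whether same-numbered libraries have more in common than a number. With a replicate block, the changes were 0.66 (adjusted p = 0.165) for ISC against E14.5 and −2.31 (adjusted p = 0.00335) for enterocytes against ISC, and 4237 and 4190 windows were called.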

Other observations

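The 9 regions found in a single library were short, 239 to 676 bp, and 8 of them were in ISC replicate 2, the library with the largest covered total. The ninth was in E12.5 replicate 2, at 67188172 to 67188469. With −log10 q of at least 10, ISC replicate 1 and ISC replicate 2 each had 7 peaks in the Cps1 window, E14.5 had 6 and 4, E12.5 had 2 and 2, and enterocytes had 0 and 1.

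The share of the marked length that lay before the gene was 74.9 and 82.0% at E14.5, against 49.9 and 49.3% at E12.5. It was 68.2 and 62.7% in ISC and 76.5 and 82.4% in enterocytes. Per Mb of each library's covered total, the window held 134 and 134 bp at E12.5, 277 and 268 bp at E14.5, 463 and 408 bp in ISC, and 51.6 and 122 bp in enterocytes.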
